A study of Homo sapiens with 6 samples.

Results

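The CCAAT/enhancer-binding proteins (C/EBPs) are transcription factors of the basic leucine zipper class, described here through the gene symbols CEBPA, CEBPB, CEBPD, CEBPE, CEBPG and CEBPZ. The members were all probe sets of the array whose platform annotation gave, or listed, one of these 6 symbols. The rule found 8 of 54675 probe sets: 1 each for CEBPA, CEBPB, CEBPE and CEBPZ and 2 each for CEBPD and CEBPG. None of the 8 listed a further gene. RNA came from MOLM-14 cells, a leukaemia line of myeloid origin with the MLL-AF9 fusion, which all samples carry. The DMSO group received the solvent for 3 h, and the CA group received 25 nM cortistatin A (CA), an inhibitor of the Mediator kinases CDK8 and CDK19, for 3 h. Each group had 3 samples, measured on Affymetrix U133 Plus 2.0 arrays. The labels speak of triplicate wells and not of cultures started apart. The spread behind every p-value below is that between these samples and may be technical.

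C/EBP proteins bind DNA as dimers formed through their leucine zippers. C/EBPα is needed for the step from early myeloid progenitors to granulocyte and monocyte progenitors, and CEBPA is recurrently mutated or held down in acute myeloid leukaemia. C/EBPβ and C/EBPδ respond to inflammatory signals, and C/EBPε drives late granulocyte maturation. C/EBPγ lacks a strong activation domain and modulates its partners. CEBPZ shares the name but encodes a protein without the zipper that takes part in making ribosomes. The mRNAs of CEBPA and CEBPB are each translated into longer and shorter proteins with different activity, which a probe set cannot separate. In these RNA pools, fewer cells of a type and less RNA per cell cannot be told apart.

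Sequence just before the start of 3 members is shown: CEBPA and CEBPG, which lie near each other on chromosome 19, and CEBPB. They were picked because CEBPA and CEBPG read higher on every CA array, while the groups overlapped for CEBPB. Among all probe sets 8.96% had every CA array above every DMSO array. CEBPG did not pass the test described below (limma adjusted p = 0.433 and 0.696 at its 2 probe sets). Each run holds the 250 bases before a RefSeq start, 5′ to 3′ along the gene's own strand, on GRCh38.p14. They are chr19:33302535-33302784 on the minus strand for CEBPA, chr19:33373459-33373708 on the plus strand for CEBPG and chr20:50190333-50190582 on the plus strand for CEBPB. Capitals mark matches, on either strand, to 6 motifs. TATAAA is the TATA box and was found in 10.7% of 35116 RefSeq windows of this length. CCAAT is the CCAAT box, found in 32%. GGGCGG is the GC box, found in 42.6%. CACGTG is an E-box, found in 6.34%. TGACG is the core of a cyclic AMP response element, found in 21.2%. TTGCNNAA is a C/EBP core, found in 9.05%.
CEBPA: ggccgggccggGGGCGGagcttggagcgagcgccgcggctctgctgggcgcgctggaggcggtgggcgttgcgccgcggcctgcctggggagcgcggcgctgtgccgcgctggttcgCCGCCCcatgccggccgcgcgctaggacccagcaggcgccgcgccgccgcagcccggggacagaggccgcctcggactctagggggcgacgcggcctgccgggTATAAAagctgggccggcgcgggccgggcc
CEBPG: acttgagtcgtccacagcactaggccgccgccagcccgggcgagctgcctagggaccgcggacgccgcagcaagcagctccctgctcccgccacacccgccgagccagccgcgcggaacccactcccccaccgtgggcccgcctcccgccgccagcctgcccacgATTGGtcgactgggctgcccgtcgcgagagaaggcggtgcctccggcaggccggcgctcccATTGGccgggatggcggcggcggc
CEBPB: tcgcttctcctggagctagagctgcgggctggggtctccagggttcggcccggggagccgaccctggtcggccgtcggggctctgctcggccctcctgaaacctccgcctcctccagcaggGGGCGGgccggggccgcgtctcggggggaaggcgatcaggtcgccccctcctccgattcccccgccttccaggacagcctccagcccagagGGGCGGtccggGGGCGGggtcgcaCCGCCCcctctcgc
The CEBPA run held a TATA box 30 to 25 bases before the start and 2 GC boxes. The CEBPG run held 2 CCAAT boxes, both on the opposite strand, at 85 to 81 and at 24 to 20 bases before the start. The CEBPB run held 4 GC boxes. The C/EBP core, the E-box and the response element core had no match in these 3 runs, and no matches overlapped. GC content was 81.2% for CEBPA, 76.0% for CEBPG and 75.6% for CEBPB. CEBPB and CEBPG each have another RefSeq start, whose window is not printed. The other CEBPB window held a TATA box 29 to 24 bases before its start, a CCAAT box, the response element core and 5 GC boxes, and the other CEBPG window held 1 GC box. Which start these cells use was not measured, so the printed runs do not set CEBPB apart from CEBPA by its motifs. CEBPE and CEBPZ also matched the promoter table, and CEBPD is named only.

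Array medians ranged from 5.03 to 5.08 (log2), and precision is limited by there being only 6 arrays. CA replicate 3 stood apart on the first principal component (31.6% of the variance), at 33.8 against -12.8 to 6.44 for the rest. Of 9 markers listed for a myeloid leukaemia line, 7 had a probe set with 1 symbol. LYZ (mean 12.46 in DMSO), PTPRC (10.59) and FLT3 (10.32) were bright, and CD14 (3.80) was below the array medians. ITGAM (7.49), MPO (6.32) and CSF1R (5.81) lay in between. Among the measured markers of other cell types, only KRT18 (9.27) and NKG7 (7.63) were brighter than ITGAM. Markers of lymphoid cells (7 measured), erythroid cells and platelets (4), epithelial cells and fibroblasts (9) and liver and fat (3) included none that passed the limma test. At an unadjusted limma p under 0.05, MS4A1 was lower, by a log2 change of -0.26, and HBB higher, by 0.25. Among all genes 4.5% were lower and 7.09% higher at this threshold. Each marker was read at its brightest probe set, which was dim for MS4A1 (3.94 in DMSO). The part of these in the results below was not tested. The kinases that CA inhibits gave log2 changes of -0.14 for CDK8 (limma adjusted p = 0.488) and -0.017 for CDK19 (0.914).

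The 6 genes did not all move. CEBPA rose 1.39-fold after CA, and the brighter CEBPD probe set was 1.27-fold higher, passing over genes but not over probe sets. Both CEBPG probe sets were slightly higher without passing the test. CEBPB and CEBPZ had overlapping groups, and CEBPE had a small difference in the other direction. In limma over all 54613 non-control probe sets, with Benjamini-Hochberg adjustment, 1 of the 8 family probe sets was higher at an adjusted p under 0.05 (that of CEBPA) and 0 were lower. Among all probe sets 0.22% passed, 0.212% higher and 0.00732% lower. With 1 probe set for each of 19775 genes, the brightest, 2 of 6 family genes were higher, CEBPA and CEBPD, and 0 were lower. Among all genes 0.895% passed, 0.839% higher and 0.0556% lower. The members were chosen with earlier results of these data known, so the family counts are no independent evidence. Before adjustment, 3 family probe sets had a limma p under 0.05, all higher and 0 lower. The shares of all probe sets were 8.62%, with 4.91% higher and 3.71% lower. CA and DMSO arrays did not overlap at 5 family probe sets, with CA above at 4 and below at 1. The shares of all probe sets were 15.5%, 8.96% and 6.55%. The median log2 change was 0.11 over the 8 probe sets and -0.0011 over all probe sets.

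**Figure D1:**
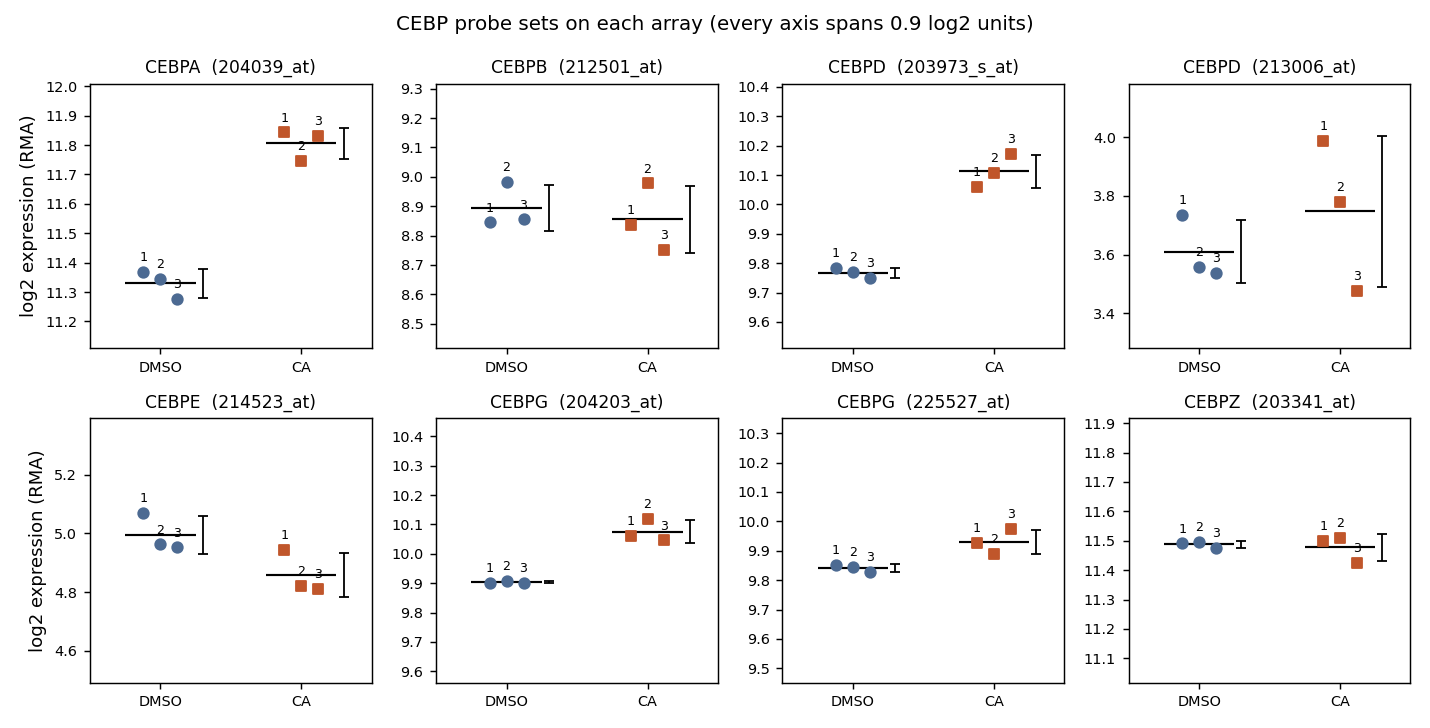
Log2 expression (RMA) of the 8 CEBP probe sets on each of 3 DMSO arrays (circles) and 3 CA arrays (squares), numbered by replicate, with a line at the group mean and a bar of ± 1 SD (n = 3) beside it. The groups are separate for CEBPA, the first CEBPD probe set, CEBPE and both CEBPG probe sets, and overlap for the others.

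CEBPA encodes C/EBPα, the member most tied to myeloid commitment. Its probe set, 204039_at, read log2 values of 11.37, 11.34 and 11.28 on the DMSO arrays and 11.84, 11.75 and 11.83 on the CA arrays. All 3 CA values lay above all 3 DMSO values, and CA replicate 2 was the lowest of the treated arrays. The means were 11.33 ± 0.048 in DMSO and 11.81 ± 0.053 in CA (SD, n = 3 each). The log2 change was 0.48, with a 95% confidence interval of 0.34 to 0.62 (limma, adjusted p = 0.0439 over probe sets and 0.0173 over genes). This probe set ranked 101 of 54613 by p. Leaving out any single array moved the log2 change between 0.45 and 0.51, and over probe sets no reduced set gave a call (limma adjusted p between 0.113 and 0.240). Over genes, CEBPA passed in 1 of the 6 reduced sets, that without CA replicate 3 (limma adjusted p = 0.0487), and lay between 0.0728 and 0.113 in the other 5. An exact permutation test of 3 against 3 arrays gave a two-sided p of 0.1, the smallest this design allows; CEBPD at 203973_s_at, CEBPE and both CEBPG probe sets gave the same exact p.

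CEBPD encodes C/EBPδ, which acute phase signals induce in many cell types. Its brighter probe set, 203973_s_at, read 9.78, 9.77 and 9.75 in DMSO and 10.06, 10.11 and 10.17 in CA. The DMSO arrays were close together and each CA array was above them, CA replicate 3 most. The log2 change was 0.35 (0.21 to 0.48), with a limma adjusted p of 0.0975 over probe sets and 0.0338 over genes. Without any single array CEBPD was not called over genes (limma adjusted p between 0.0682 and 0.183), while its log2 change lay between 0.32 and 0.37. The second probe set, 213006_at, was dim, at 3.73, 3.56 and 3.54 in DMSO and 3.99, 3.78 and 3.48 in CA. Here the groups overlapped, with CA replicate 3 below every DMSO array. The log2 change of 0.14 had an interval of -0.17 to 0.45 (limma adjusted p = 0.800). It was 0.017 without CA replicate 1 and 0.27 without CA replicate 3, and was called in neither. With the mean of both probe sets the CEBPD change was 0.24 (limma adjusted p = 0.260), and a second quantile normalisation gave 0.32 (0.0567). Over all alternatives its limma adjusted p over genes ran from 0.000354 to 0.768. The highest came without _x_at, _s_at and _a_at probe sets, which drops 203973_s_at and leaves the dim 213006_at for CEBPD.

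CEBPG encodes C/EBPγ, a dimer partner of other C/EBP proteins and of ATF4. Probe set 204203_at read 9.90, 9.91 and 9.90 in DMSO and 10.06, 10.12 and 10.05 in CA. The DMSO values were almost the same and all 3 CA values were higher. The log2 change was 0.17 (0.046 to 0.30), or 1.13-fold, with an unadjusted limma p of 0.0143 and an adjusted p of 0.433. The second probe set, 225527_at, read 9.85, 9.85 and 9.83 in DMSO and 9.93, 9.89 and 9.97 in CA. It also separated the groups, with a log2 change of 0.088 (-0.039 to 0.22, limma adjusted p = 0.696). When limma used an intensity trend and robust variances, 204203_at passed (adjusted p = 0.0359; over the alternatives 0.0359 to 0.812).

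CEBPE encodes C/EBPε, the factor of late neutrophil and eosinophil maturation. Its probe set, 214523_at, was near the array medians, with 5.07, 4.96 and 4.95 in DMSO and 4.94, 4.82 and 4.81 in CA. The groups were separate by a narrow margin, DMSO replicate 3 being just above CA replicate 1. CA minus DMSO was -0.14 on the log2 scale (-0.29 to 0.020, limma adjusted p = 0.626).

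CEBPB encodes C/EBPβ, which takes part in emergency granulocyte production and macrophage activation. Its probe set, 212501_at, read 8.85, 8.98 and 8.85 in DMSO and 8.84, 8.98 and 8.75 in CA. CA replicate 3 was the lowest array, and the groups overlapped. Its log2 change was -0.039, with an interval of -0.22 to 0.15 (limma adjusted p = 0.910), so this interval holds changes from 0.856-fold to 1.11-fold. The estimate turned to 0.0051 without DMSO replicate 2 and to 0.013 without CA replicate 3. CEBPZ, which encodes the nucleolar protein, is probed by 203341_at. This probe set read 11.49, 11.50 and 11.48 in DMSO and 11.50, 11.51 and 11.42 in CA. The groups overlapped, with CA replicate 3 lowest. Its log2 change was -0.011 (-0.14 to 0.12, limma adjusted p = 0.971), and it turned to 0.016 without CA replicate 3.

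**Figure D2:**
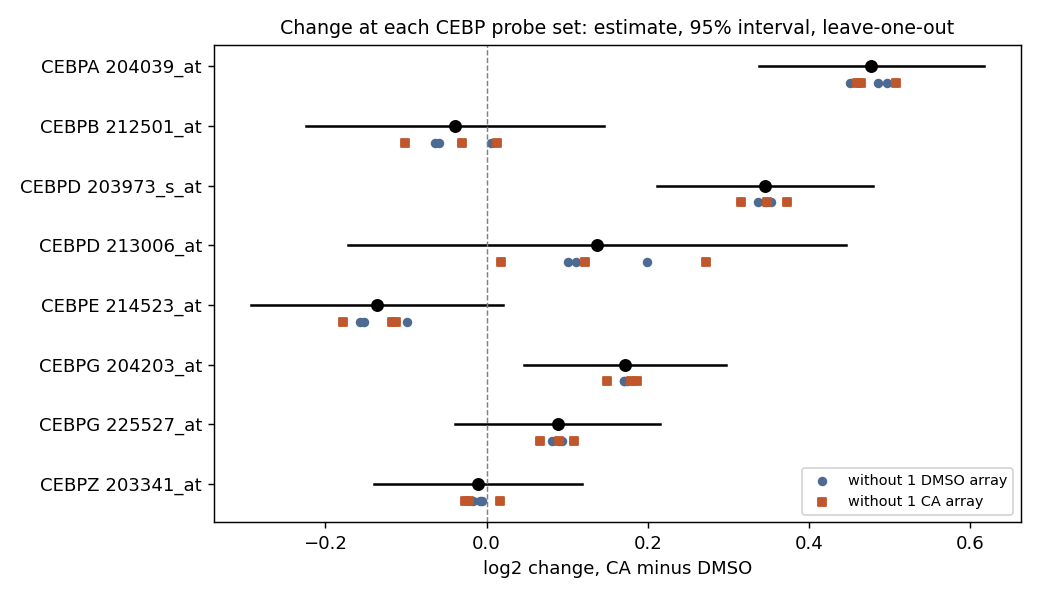
Log2 change, CA minus DMSO, at each CEBP probe set, with black points and lines for the limma estimate and its 95% confidence interval, and small circles and squares for the estimate without 1 DMSO or 1 CA array. The intervals of CEBPA, the first CEBPD probe set and the first CEBPG probe set lie above 0, and leaving out an array moves CEBPA between 0.45 and 0.51.

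Whether CEBPA changed by another amount than its relatives was asked with differences of log2 values within each array, which show unequal change only. CEBPA minus CEBPB was 2.52, 2.36 and 2.42 on the DMSO arrays and 3.01, 2.77 and 3.08 on the CA arrays, a shift of 0.52. The shift was 0.61 against CEBPE, 0.49 against CEBPZ, 0.31 against CEBPG and 0.13 against CEBPD. In all 5 pairs the 3 CA arrays lay above the 3 DMSO arrays. CEBPA minus CEBPD was 1.58, 1.58 and 1.53 in DMSO and 1.78, 1.64 and 1.66 in CA, so the smallest shift was also the one with the narrowest gap between groups. Each pair had a two-sided exact permutation p of 0.1, the smallest this design allows, and 0.1 after Benjamini-Hochberg adjustment over the 5 pairs, so none could pass the threshold. Without CA replicate 1 the shift against CEBPD was 0.087, and with the mean of each gene's probe sets it was 0.24.

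**Figure D3:**
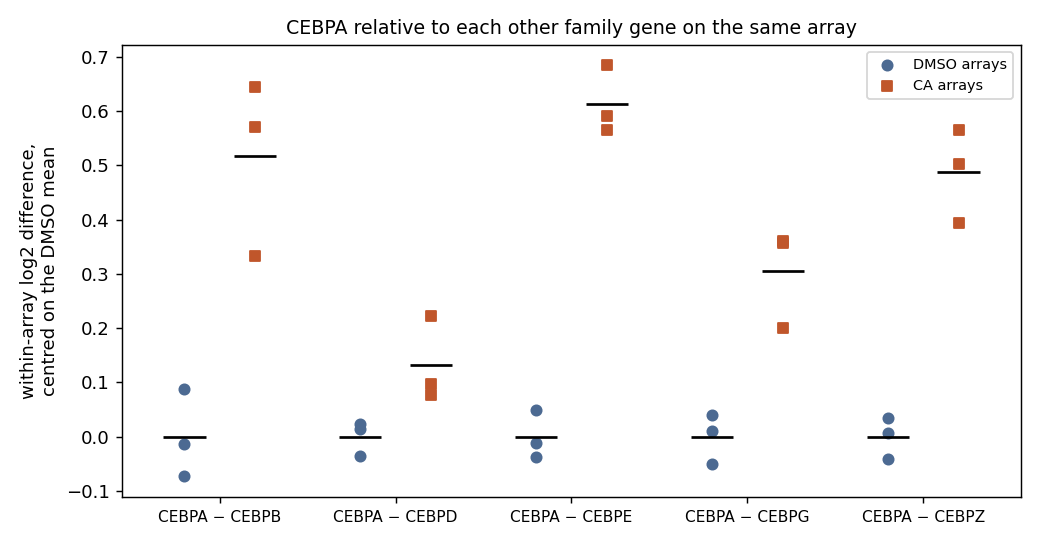
Log2 value of CEBPA minus that of each other family gene on the same array, centred on the DMSO mean, for 3 DMSO arrays (circles) and 3 CA arrays (squares), with lines at the group means. The shift between groups is 0.13 against CEBPD, the smallest of the 5, and 0.61 against CEBPE, the largest.

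CEBPA-DT is a long non-coding RNA that starts 287 bases from CEBPA (RefSeq, GRCh38.p14) and is transcribed the other way. Its probe set read 7.43, 7.53 and 7.50 in DMSO and 7.46, 7.70 and 7.68 in CA. CA replicates 2 and 3 were above all DMSO arrays and CA replicate 1 was not. The log2 change was 0.13 (-0.051 to 0.31, limma adjusted p = 0.568 over genes), and its difference from that of CEBPA was not tested. It was 0.21 without CA replicate 1 and 0.086 without CA replicate 2, and was called in neither. On the other side of CEBPA, SLC7A10 and LRP3 gave log2 changes of 0.10 (limma adjusted p = 0.547) and 0.059 (0.716). Beside CEBPD, the DNA repair kinase gene PRKDC gave -0.044 (limma adjusted p = 0.831). CEBPZOS, the neighbour of CEBPZ, gave log2 changes of 0.081, 0.071 and -0.14 at its 3 probe sets, none of which passed.

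The genes most like CEBPA over the 6 arrays were ranked by the root mean square difference of log2 values, each gene centred on its DMSO mean. GPRC5C, an orphan receptor, was closest at 0.027, with a rise of 1.38-fold. LAIR1 and VSIR, inhibitory receptors of immune cells, followed at 0.038 and 0.039, then CLEC4M at 0.042 and ANXA2R at 0.045. CLEC4M was dim, at 3.70 in DMSO. For CEBPD the closest were MYB, a factor of haematopoietic progenitors, at 0.019, and SELPLG, a ligand of selectins, at 0.021. RBPJ, MYBPH and CISH followed at 0.027, 0.028 and 0.030. With 2 groups, the measure mainly ranks genes by the size of the difference between them.

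Genes around the C/EBP factors were followed in 7 lists with 120 genes, of which 111 had a probe set with 1 symbol. Of these, 5 rose over all genes (limma, adjusted p under 0.05) and 0 fell, or 4.50% against 0.895% of all genes. The 5 were MYC, TNF, SLC7A11, DDIT4 and VLDLR. The lists were drawn up with earlier results of these arrays known, the rises of TNF, DDIT4 and VLDLR among them, so the share is no independent evidence. Without any single array, 0 or 1 of the list genes passed. TNF was that gene in 5 of 6 reduced sets, and it did not pass without DMSO replicate 3 (limma adjusted p = 0.0508; over the alternatives 3.96e-06 to 0.0604).

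**Figure D4:**
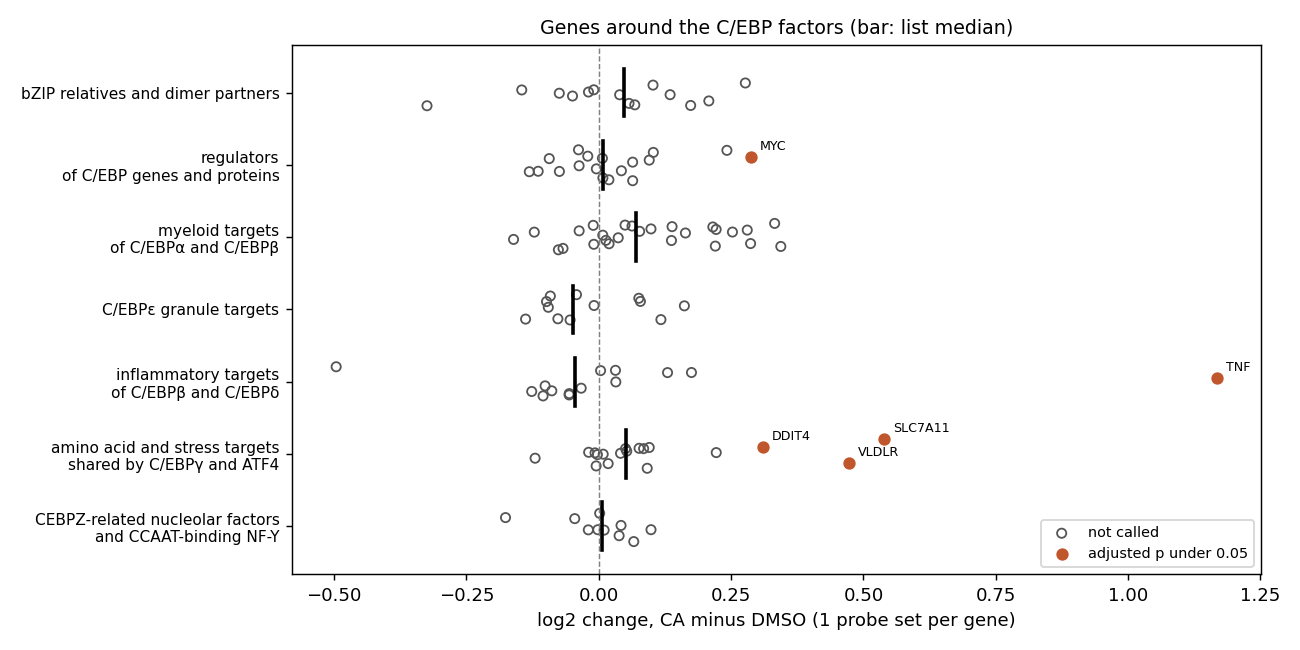
Log2 change, CA minus DMSO, of the genes in 7 lists around the C/EBP factors, 1 probe set per gene, filled where the limma adjusted p was under 0.05 and open elsewhere, with a bar at each list's median. The named genes are MYC, TNF, SLC7A11, DDIT4 and VLDLR.

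Among 18 measured regulators of C/EBP genes and proteins, MYC rose and 0 fell (against 0.839% and 0.0556% of all genes), with a median log2 change of 0.0074 against 0.0037 over all genes. MYC, which opposes C/EBPα in myeloid progenitors, read 12.25, 12.27 and 12.26 in DMSO and 12.53, 12.53 and 12.58 in CA. The groups were separate, with a log2 change of 0.29 (0.19 to 0.39, limma adjusted p = 0.0405). MYC did not pass when any single array was left out, and over the alternatives its limma adjusted p ran from 3.38e-05 to 0.232. TRIB1 and TRIB2 encode adaptors that bring C/EBPα to the ubiquitin ligase COP1. TRIB1 read 8.75, 8.84 and 8.79 in DMSO and 9.11, 9.05 and 8.94 in CA, with separate groups and a log2 change of 0.24 (limma adjusted p = 0.185). Its other 2 probe sets were dim and gave -0.0010 and 0.026, and the mean of all 3 gave 0.089 (limma adjusted p = 0.798; over the alternatives 0.0261 to 0.798). TRIB2 was dim and its groups overlapped, with a log2 change of 0.064 (0.871). RUNX1, which acts at the CEBPA locus, had no probe set with 1 symbol and was not analysed here.

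Of 26 measured myeloid targets of C/EBPα and C/EBPβ, 0 passed in limma over genes. Before adjustment, 9 were higher and 0 lower at a limma p under 0.05, against 7.09% and 4.5% of all genes (11.6% in either direction). CA lay above DMSO on every array for 11 and below for 1, against 11.8% and 7.53% (19.3% in either direction). The list median was 0.070. S100A8, a calcium-binding protein of neutrophils and monocytes, read 10.78, 10.72 and 10.72 in DMSO and 11.06, 10.96 and 10.95 in CA (log2 change 0.25, limma adjusted p = 0.109). GFI1, a repressor needed for granulocyte formation, read 9.46, 9.42 and 9.34 in DMSO and 9.85, 9.74 and 9.63 in CA (log2 change 0.33, limma adjusted p = 0.127). Both separated the groups without passing in the main fit. With an intensity trend and robust variances both passed, and 3 genes of this list in all. S100A8 also passed without dim probe sets. Over the alternatives the limma adjusted p ran from 0.00237 to 0.478 for S100A8 and from 0.00686 to 0.399 for GFI1. CSF3R, the receptor of G-CSF and a classical C/EBPα target, gave a log2 change of 0.050 (limma adjusted p = 0.723) and MPO, the myeloperoxidase gene, 0.063 (0.781). SPI1, which encodes the partner factor PU.1, gave -0.12 (-0.27 to 0.024, limma adjusted p = 0.509). Its probe set was not far above the array medians, at a mean of 5.49 in DMSO.

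The 12 measured granule genes that C/EBPε activates gave 0 calls in limma and 0 at an unadjusted p under 0.05. The shares of all genes were 0.895% and 11.6%. The list's median log2 change was -0.048. LTF, lactoferrin, gave a log2 change of 0.16 (limma adjusted p = 0.446) and CRISP3 of -0.14 (0.509), both at probe sets below the array medians. The means of LCN2, EPX, ORM1, MMP8, CEACAM8 and OLFM4 were below the array medians too. Among 14 measured inflammatory targets of C/EBPβ and C/EBPδ, TNF rose and 0 fell (against 0.839% and 0.0556% of all genes), with a median of -0.044. In this list IL6, CXCL8, CXCL1, CXCL2, CCL2, LPL, G0S2, TNFAIP6 and PPARG had means below the array medians. TNF, the cytokine, read 7.06, 7.20 and 7.14 in DMSO and 8.36, 8.36 and 8.18 in CA. Every CA array was far above the DMSO arrays, a 2.25-fold rise (2.01 to 2.51, limma adjusted p = 0.00419). PTGS2, the cyclooxygenase 2 gene, chosen for mention after its values were seen, read 5.21, 5.31 and 5.14 in DMSO and 4.48, 5.04 and 4.65 in CA. All 3 CA values were below the DMSO values, with a log2 change of -0.50 that did not pass (limma adjusted p = 0.265). Before adjustment, TNF was the 1 gene of this list that was higher and PTGS2 the 1 that was lower (against 7.09% and 4.5% of all genes).

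Of 18 measured amino acid and stress genes shared by C/EBPγ and ATF4, SLC7A11, DDIT4 and VLDLR rose and 0 fell (against 0.839% and 0.0556% of all genes), with a median log2 change of 0.052. SLC7A11, the cystine transporter, read 8.61, 8.67 and 8.59 in DMSO and 9.07, 9.24 and 9.16 in CA, a 1.45-fold rise (log2 interval 0.40 to 0.68, limma adjusted p = 0.0173). Another probe set of SLC7A11, 209921_at, gave a log2 change of 0.65 and also passed over all probe sets (limma adjusted p = 0.0340), and a dimmer one gave 0.18 (0.533). DDIT4, an inhibitor of mTOR signalling, read 12.17, 12.17 and 12.21 in DMSO and 12.51, 12.50 and 12.47 in CA (log2 change 0.31, limma adjusted p = 0.0314). VLDLR, a lipoprotein receptor, read 8.02, 8.16 and 7.95 in DMSO and 8.51, 8.59 and 8.46 in CA (log2 change 0.47, limma adjusted p = 0.0394). All 3 separated the groups, and none of the 3 passed when any single array was left out. VLDLR also did not pass with arrays centred on their medians (limma adjusted p = 0.0505). Over the alternatives the limma adjusted p ran from 0.00111 to 0.217 for VLDLR. It ran from 0.000103 to 0.121 for SLC7A11 and from 2.02e-05 to 0.187 for DDIT4. ATF4 itself gave a log2 change of -0.0094 (-0.11 to 0.10), and DDIT3, which encodes the C/EBP relative CHOP, -0.019 (-0.13 to 0.088).

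Among the 14 measured basic zipper relatives and dimer partners, 0 passed in limma, 2 were higher and 2 lower before adjustment (against 7.09% and 4.5% of all genes), and the median log2 change was 0.048. ATF5 read 7.84, 7.76 and 7.74 in DMSO and 7.40, 7.44 and 7.53 in CA, with CA below DMSO (log2 change -0.32, limma adjusted p = 0.0761). ATF5 was called lower with the intensity trend and robust variances, with array weights and without dim probe sets. The mean of its probe sets gave -0.24 (limma adjusted p = 0.241; over the alternatives 0.0102 to 0.319). BATF3, a partner of JUN proteins, had CA above DMSO and a log2 change of 0.21 (limma adjusted p = 0.135). It passed with the trend and without dim probe sets (limma adjusted p over the alternatives 0.0123 to 0.441). Of 10 measured nucleolar factors related to CEBPZ and subunits of the CCAAT-binding factor NF-Y, 0 passed in limma, 0 were higher and 1, NFYA, was lower before adjustment (against 7.09% and 4.5% of all genes), and the median was 0.0060. NFYA gave a log2 change of -0.18 (limma adjusted p = 0.335) and PDCD11, a ribosome biogenesis factor, 0.10 (0.507).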

How the data were processed

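The deposited values are log2 expression per probe set, which the authors obtained with RMA in affy per the submitters' processing notes, with no version given. RMA includes quantile normalisation, so a shift common to all transcripts cannot be seen. Extraction used 1 of 2 reagents, per the labels, and which samples got which is not given in the labels. Values were used unchanged. Of 54675 probe sets, 62 controls were left out; 41091 had 1 symbol, 1801 several and 11721 none. By gene number 41037 of the first kind matched a GRCh38.p14 gene table, with 0 symbols updated. Groups came from sample titles. CA was compared with DMSO in limma 3.58.1 under R 4.3.3 (lmFit and eBayes, two-sided, Benjamini-Hochberg adjustment, called under 0.05), over 54613 probe sets and over 19775 genes with the brightest probe set of each. A fold is the antilog of the log2 change. The limma fit was also run on simulated data with independent arrays and variances drawn from its own fitted model. Those data held no pairing, outlying array or intensity trend, so they do not test the effect of these.

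The members and lists were chosen with earlier results of these data known. The text names all members, at most 4 called genes per list by p (the 2 smallest p where none was called), CDK8, CDK19, TRIB1, TRIB2, RUNX1, SPI1, DDIT3, ATF4, CSF3R, MPO, CEBPA-DT and CEBPZOS, the neighbours of called members and the 5 genes most like each. The markers printed and PTGS2 were chosen after their values were seen. CEBPB-AS1 had no probe set with 1 symbol. Alternatives were an intensity trend with robust variances, the replicate number as a block, array weights, no dim probe sets, other scaling, other choices of probe set and leaving out each array.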

Additional observations from a re-analysis of the deposited data

How the results depend on the processing

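Of 8 family probe sets, 1 passed with all arrays. It was 3 with an intensity trend and robust variances (CEBPA, CEBPD and CEBPG), 2 without dim probe sets and 0 without any single array. Of 6 family genes, 2 passed. It was 3 with the trend and robust variances, where CEBPG passed too (limma adjusted p = 0.0194; over the alternatives 0.0194 to 0.512). It was 1, CEBPA, after a second quantile normalisation, with the mean of a gene's probe sets, or without _x_at, _s_at and _a_at probe sets, and 0 to 1 without a single array. The 5 list genes that passed became 11 with the trend, 8 without dim probe sets, 1 without the suffixed probe sets, and 0 to 1 without a single array. Over all probe sets 120 passed, against 740 with the trend, 196 with array weights, 398 without dim probe sets and 0 to 6 without an array. Over genes 177 passed, against 546 with the trend, 351 without dim probe sets, 74 without suffixed probe sets and 1 to 112 without an array. The settings without dim or suffixed probe sets test fewer features and those without an array use fewer samples; the cause of the other differences was not tested.

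With the replicate number as a block, 0 family probe sets, 0 family genes and 0 list genes passed, and 1 probe set and 6 genes in all. The CEBPA change stayed at 0.48 (limma adjusted p = 0.191 over probe sets and 0.105 over genes). The labels state no pairing. Deviations of same-numbered arrays from their group means correlated at 0.081, 0.19 and 0.26. Of differently numbered arrays, CA replicate 1 and DMSO replicate 2 correlated at 0.083. All other differently numbered pairs were negative, between -0.23 and -0.014. Deviations from a group mean cancel within the group, so the signs of these correlations partly depend on each other. Whether the arrays were paired was not tested. CEBPA stayed higher in every alternative, between 0.45 and 0.51, and so did CEBPD at 203973_s_at, between 0.32 and 0.37. The sign turned for CEBPZ with array weights (0.0018 over probe sets, 0.0032 over genes) and with arrays centred on their medians (0.0044). Without a single array, CEBPZ ran from -0.027 to 0.016 and CEBPB from -0.10 to 0.013. Without CA replicate 3, CEBPZ was at 0.016 and CEBPB at 0.013. Without DMSO replicate 2, CEBPB was at 0.0051. All 5 shifts of CEBPA against its relatives stayed above 0 in the settings run for them.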
